A study of Gallus gallus with 18 samples.

Results

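Retinal pigment epithelium (RPE) of the chicken embryo was compared between embryonic day 5 (E5) and embryonic day 4 (E4), at both stages 6 h after the neural retina had been removed by surgery (retinectomy) and without added FGF2, a condition called 6 h post-retinectomy (6hPR). The comparison was made by bulk RNA-seq in 6 of the 18 libraries of the series, chosen by their labels: 3 of E5 6hPR RPE and 3 of E4 6hPR RPE. The other libraries, which enter only where they are named, are 3 per stage of developing RPE without surgery and 3 per stage of RPE 6 h after retinectomy with a heparin bead carrying FGF2 (6hPR+FGF2). All embryos were unmodified, and no transgene or allele separates the groups. Each library pools 3 RPE sheets, from 1 eye per embryo, freed by hand from neural retina and from the mesenchyme that lies on the basal side, so n counts pools. The methods of the study name SPAFAS eggs for RNA-seq and the public labels name White Leghorn eggs, and whether the eyes of 6hPR embryos received a bead without FGF2 is not given in the sources used here. The question of the study is what separates E4 RPE, which can form neural retina when retinectomy is followed by FGF2, from E5 RPE, which no longer does, and the 6hPR groups hold the response to surgery apart from that to the added factor.

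The RPE is a single sheet of pigmented cells behind the neural retina. It makes melanin inside melanosomes, recycles the retinoid used by photoreceptors, moves ions, water, lactate and glucose between the choroid and the retina, and rests on a basement membrane. In the early embryo it is specified from the same neuroepithelium as the neural retina under transcription factors such as *OTX2* and *MITF*, divides, and then leaves the cell cycle as it matures. Signalling by FGF favours neural retina in that choice, and BMP and WNT signals from the tissues around the eye favour RPE.

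Normalized counts, the values used throughout, are read counts divided by a size factor per library, and values of single libraries are listed from replicate 1 to replicate 3. The 3 E5 6hPR libraries held 55.6 to 68.4 M reads on genes and the 3 E4 6hPR libraries 50.7 to 55.4 M (M, megareads), and the median SD of log2 values between replicates, over 13109 genes with a mean of 50 or more, was 0.150 in E5 6hPR and 0.172 in E4 6hPR RPE. A count of 0 in a library allows a level of up to 3 counts, by counting error alone. A library of each stage stood apart. E5 6hPR replicate 3 had no read of *HINTW*, a transcript of the female chromosome W, with 34015, 47765 and 0 in E5 6hPR libraries, against 74678, 37762 and 76178 in E4 6hPR libraries, and of 25 genes of a list for yolk sac or liver 20 peaked in it. E4 6hPR replicate 2 was, of the E4 6hPR libraries, the nearest to the E5 6hPR values in 59.5% of the genes called higher and in 55.3% of the genes called lower at E5, where replicate 3 was the nearest in 11.3% and 12.6%. For many of the genes and lists that rest on either library, but not for all, results are given with and without it. Markers of the labelled tissue were present: the 24 melanin genes summed to 1398450 to 1633950 normalized counts in E5 6hPR and to 550891 to 796136 in E4 6hPR libraries, and each of 10 RPE transcription factors was read in all 6.

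A gene was called when limma, fitted to log2 values over all 18 libraries, gave a p of at most 0.05 after Benjamini-Hochberg adjustment over the 18287 genes tested, and all fold changes below are log2 of E5 6hPR over E4 6hPR, on log2 of the normalized count plus 0.5. By this rule 2062 genes (11.3% of those tested) were higher and 1538 (8.41%) were lower in E5 6hPR than in E4 6hPR RPE. The increases were the larger ones, with 685 called genes higher by a log2 fold change of 1 or more and 261 by 2 or more, against 287 and 65 called genes lower by as much. The median over the called genes was 0.74 for those that rose and −0.57 for those that fell, and the median of all genes tested was 0. All 3 E5 6hPR libraries lay above all 3 E4 6hPR libraries in 3276 genes (17.9%) and below them in 2913 genes (15.9%), and 1982 of the genes called higher and 1498 of those called lower were separated in this way. Without E5 6hPR replicate 3, 1515 genes (8.28%) were called higher and 1122 (6.14%) lower, 1449 and 1063 of them shared with the full comparison, and no call changed direction. Without E4 6hPR replicate 3, 2366 genes were called in place of 3600, and 1220 increases and 778 decreases kept their call whichever 1 of the 6 libraries was left out.

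**Figure D1:**
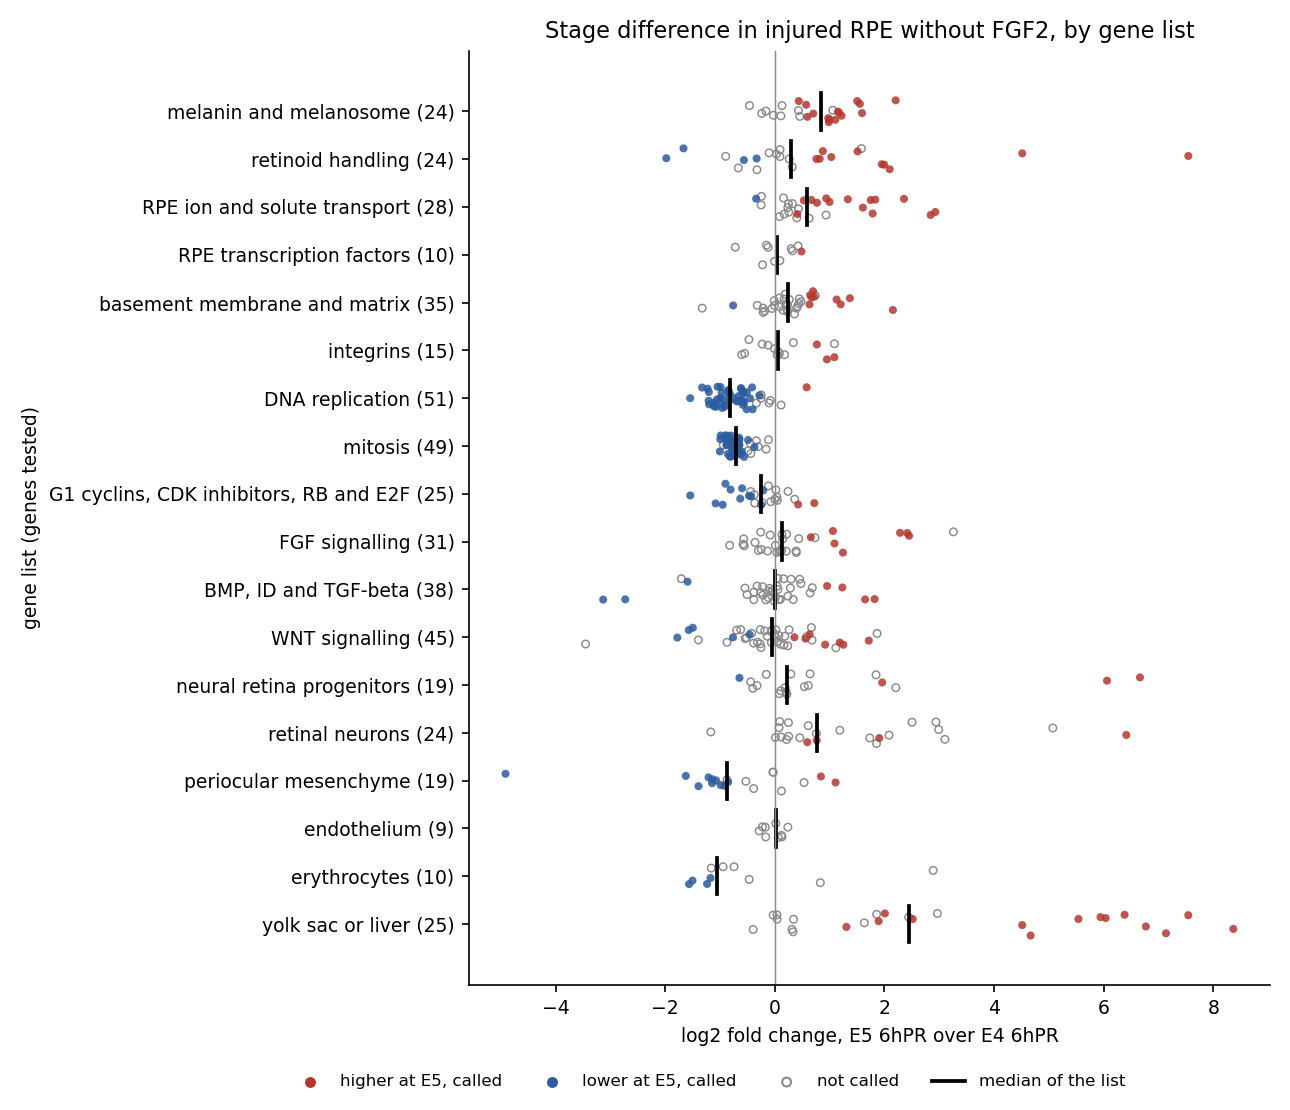
Log2 fold change of E5 6hPR over E4 6hPR RPE (x axis) for the tested genes of 18 lists (y axis, with the number of genes), each point 1 gene, filled red or blue where limma called it higher or lower at E5 and open where it did not, with a bar at the list's median. Genes of melanin, retinoid handling and transport lie mostly to the right, with medians of 0.84, 0.29 and 0.58, and genes of DNA replication and mitosis to the left, with medians of −0.82 and −0.72.

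Genes of melanin synthesis and of the melanosome were higher at E5. Of 24 tested, 15 rose and none fell, beside 11.3% higher and 8.41% lower of all genes tested. The median log2 fold change was 0.84, and the 15 were also called without E5 6hPR replicate 3. In RNA of whole sheets fewer cells of a type and less RNA per cell cannot be told apart, here and in every list that follows. *TYRP1* (ENSGALG00000015205), an enzyme that acts late in eumelanin synthesis, counted 127239, 140691 and 189176 in E5 6hPR libraries, against 28166, 48895 and 25104 in E4 6hPR libraries, a log2 fold change of 2.20 (adjusted p = 0.00012, SE 0.29) by limma, with n = 3 per stage here and below. *TYR* (ENSGALG00000017237), which carries out the rate-limiting oxidation of tyrosine, counted 132816, 144011 and 166643 in E5 6hPR libraries, against 62243, 82615 and 56582 in E4 6hPR libraries, a log2 fold change of 1.15 (adjusted p = 0.00043, SE 0.18). In both genes the groups were apart, and E4 6hPR replicate 2 was the E4 library nearest to E5. *TYRP1* is carried on chromosome Z, and without E5 6hPR replicate 3, its highest library, its log2 fold change was 2.04 (adjusted p = 0.0011). The pools that remained still differed in *HINTW*, and the part of their mix of sexes in *TYRP1*, or in any other gene named here, was not tested. The third enzyme, *DCT* (ENSGALG00000016899), counted 262214, 258797 and 271605 in E5 6hPR libraries, against 114495, 134169 and 95498 in E4 6hPR libraries, a log2 fold change of 1.22 (adjusted p = 8.4e-05, SE 0.15). *PMEL*, which forms the fibrils on which melanin is laid down, was the most abundant of the list with 577127, 728328 and 681955 in E5 6hPR libraries, against 279781, 386932 and 233236 in E4 6hPR libraries and a log2 fold change of 1.17 (adjusted p = 0.00069, SE 0.20). *GPR143*, the melanosomal receptor mutated in human ocular albinism, rose by a log2 fold change of 1.55 (adjusted p = 4.1e-05) and *GPNMB*, a melanosomal glycoprotein, by 1.59 (adjusted p = 0.002). Of the genes of melanosome transport and biogenesis, *RAB27A* rose on the log2 scale by 1.10 (adjusted p = 2.4e-05) and *RAB38* by 0.97 (adjusted p = 0.0047), and the melanosomal proteins *MLANA* and *CD63* rose by 0.98 (adjusted p = 0.0027) and 1.00 (adjusted p = 0.0042). *OCA2* and *SLC45A2*, both membrane proteins of the melanosome, did not pass the test, with log2 fold changes of 0.11 (adjusted p = 0.65) and 0.13 (adjusted p = 0.73). Of 9 tested markers of neural crest and melanocytes, the other cells that can make melanin, none was called higher, beside 11.3% of all genes tested. *SOX10*, a factor of this list, counted 15509.5, 18104 and 16289 in E5 6hPR libraries, against 10070.5, 18445 and 11581 in E4 6hPR libraries (log2 fold change 0.36, adjusted p = 0.15). *SOX10* was called higher without E4 6hPR replicate 2 (adjusted p = 0.0019). It led the summed level of the list, which was 18794 to 21265 in E5 6hPR and 14004.5 to 21756 in E4 6hPR libraries. Which cells its reads came from was not tested.

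Retinoid genes changed in both directions. Of 24 tested, 10 rose and 4 fell, beside 11.3% higher and 8.41% lower of all genes tested. The median was 0.29, and without E5 6hPR replicate 3 the counts were 10 and 3. The genes of the visual cycle and of retinoid binding that rose were strongly expressed. *RLBP1* (ENSGALG00000006676), the binding protein CRALBP of the visual cycle, counted 123691, 148942 and 158342 in E5 6hPR libraries, against 43004, 71544 and 41011 in E4 6hPR libraries, a log2 fold change of 1.51 (adjusted p = 0.00028, SE 0.23). *RGR* (ENSGALG00000002299), a retinal-binding opsin of the RPE, counted 31009.5, 35157 and 38552 in E5 6hPR libraries, against 8671, 14646 and 5219 in E4 6hPR libraries, a log2 fold change of 2.00 (adjusted p = 0.0004, SE 0.31). Neither overlapped between the stages, and E4 6hPR replicate 2 was again the highest E4 library in both. *BCO1*, which cleaves carotene to retinal, rose on the log2 scale by 1.95 (adjusted p = 0.00027), and the retinol dehydrogenases *RDH5* and *RDH10* by 1.03 (adjusted p = 0.006) and 0.88 (adjusted p = 0.00036). *STRA6*, the membrane receptor for retinol-binding protein, rose by a log2 fold change of 0.76 (adjusted p = 0.008). *RBP4* and *TTR*, the carriers of retinol in plasma, are also in the list, and their values are given with the yolk sac or liver genes below. *RBP4* did not share the high level of those genes in E5 6hPR replicate 3. It was high in E5 6hPR replicates 1 and 2 and low in replicate 3, as were *ATOH7*, *FGF19* and *FGF8*, given with the retinal genes below. Whether its reads came from RPE or from retinal cells was not tested. The study counts *RBP4* among the retinol metabolism genes of RPE function that were higher at E5. The 4 genes that fell were *CRABP2*, *ALDH1A3*, *RARG* and *RARB*, and they numbered 2 without E5 6hPR replicate 2, E4 6hPR replicate 1 or E4 6hPR replicate 3. *CRABP2* (ENSGALG00000029140), which carries retinoic acid to the nucleus, counted 2411, 2489 and 2481 in E5 6hPR libraries, against 7289.8, 6029.9 and 10846 in E4 6hPR libraries, a log2 fold change of −1.67 (adjusted p = 1.2e-05, SE 0.16), and the retinoic acid receptors *RARG* and *RARB* fell on the log2 scale by 0.57 (adjusted p = 0.0029) and 0.33 (adjusted p = 0.013), a call that *RARB* lost when E5 6hPR replicate 2 or E4 6hPR replicate 1 or 3 was left out (adjusted p from 0.052 to 0.067). *ALDH1A3*, a retinoic acid synthase, counted 2012, 1517 and 2146 in E5 6hPR libraries, against 12014, 3715 and 9027 in E4 6hPR libraries, a log2 fold change of −1.98 (adjusted p = 0.033), and E4 6hPR replicate 2 lay nearest to the E5 libraries. Its call was lost when E5 6hPR replicate 1, 2 or 3 or E4 6hPR replicate 1 or 3 was left out (adjusted p from 0.066 to 0.13). *RPE65*, the isomerase of the visual cycle, counted 528, 629.5 and 598 in E5 6hPR libraries, against 367, 828 and 379 in E4 6hPR libraries, and *LRAT*, its partner, 43.5, 24.7 and 41.9 in E5 6hPR libraries, against 35.1, 39.9 and 26.3 in E4 6hPR libraries, so that both were low, overlapped between the stages and did not pass the test (log2 fold change 0.26, adjusted p = 0.57 and log2 fold change 0.09, adjusted p = 0.91).

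Genes of membrane transport were higher at E5. Of 28 tested genes 14 rose and 1 fell, beside 11.3% higher and 8.41% lower of all genes tested. The median was 0.58, and the same number rose without E5 6hPR replicate 3, where none fell. *SLC16A8* (ENSGALG00000036897), the basolateral lactate transporter MCT3 of the RPE, counted 39566, 41058 and 37192 in E5 6hPR libraries, against 4026, 7892 and 4303 in E4 6hPR libraries, a log2 fold change of 2.93 (adjusted p = 3e-05, SE 0.32). *SLC39A12* (ENSGALG00000008602), a zinc transporter, counted 4952, 4887 and 4134 in E5 6hPR libraries, against 573, 984 and 478 in E4 6hPR libraries, a log2 fold change of 2.84 (adjusted p = 3e-05, SE 0.31). *BEST1* (ENSGALG00000007217), the chloride channel bestrophin of the basolateral membrane, counted 22245, 21360 and 20775 in E5 6hPR libraries, against 5428, 10026 and 4763 in E4 6hPR libraries, a log2 fold change of 1.75 (adjusted p = 0.00018, SE 0.25). In these 3 genes the highest E4 library, replicate 2, lay below the lowest E5 library. The chloride channel *CLCN2* rose on the log2 scale by 2.36 (adjusted p = 6.2e-05), the apical potassium channel *KCNJ13* by 1.61 (adjusted p = 0.0012) and the water channel *AQP1* by 1.83 (adjusted p = 0.0014). Among the transporters that are already abundant at E4, the lactate transporter *SLC16A1* counted 133314, 140455 and 122415 in E5 6hPR libraries, against 63673, 80719 and 55929 in E4 6hPR libraries (log2 fold change 1.00, adjusted p = 8.2e-05), and the glucose transporter *SLC2A1* counted 98731, 100656 and 108001 in E5 6hPR libraries, against 63203, 73887 and 57319 in E4 6hPR libraries (log2 fold change 0.67, adjusted p = 0.00032). The sodium pump subunit *ATP1B1* rose on the log2 scale by 0.53 (adjusted p = 0.0005), and *SLC16A3*, a lactate transporter of glycolytic cells, by 1.33 (adjusted p = 0.0003).

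**Figure D2:**
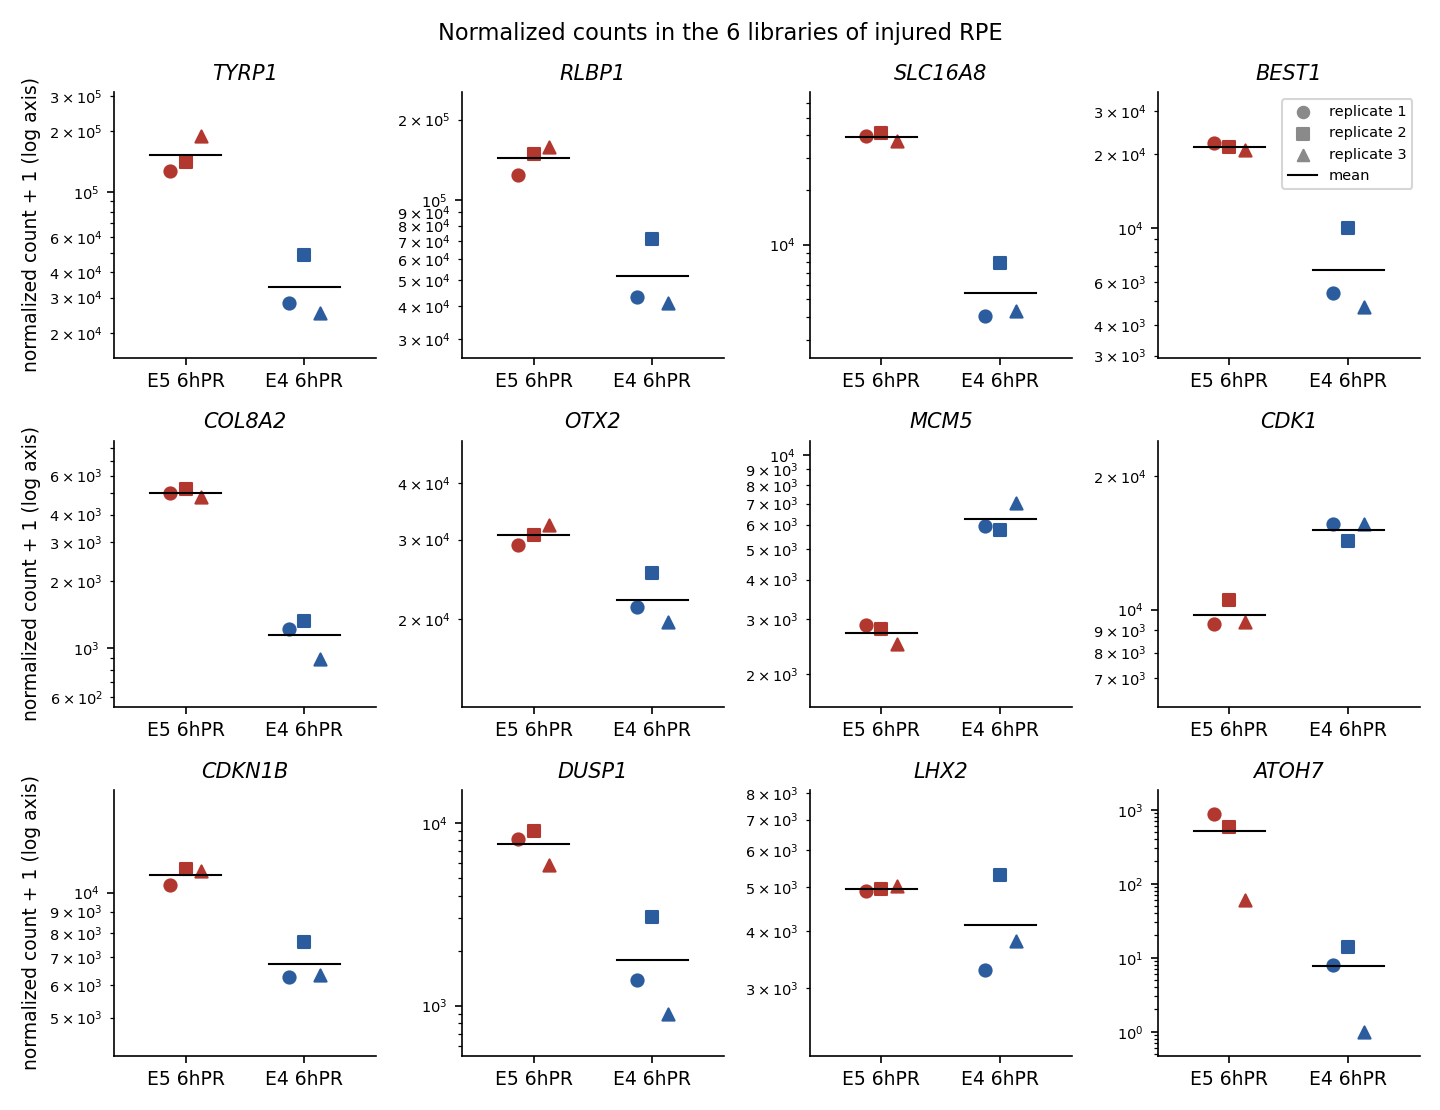
Normalized counts plus 1 (y axis, log scale) of 12 genes in the 6 libraries of 6hPR RPE (x axis, E5 left in red, E4 right in blue), with a symbol for each replicate and a bar at the group mean. *TYRP1*, *RLBP1*, *SLC16A8*, *BEST1*, *COL8A2*, *OTX2*, *CDKN1B* and *DUSP1* lie higher in every E5 library, *MCM5* and *CDK1* lower, *LHX2* overlaps because E4 6hPR replicate 2 holds 5289, and in *ATOH7* E5 6hPR replicate 3 lies at 60.0, below the other E5 libraries.

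Of 10 tested transcription factors that set RPE identity 1 was called, beside 11.3% higher and 8.41% lower of all genes tested. The median of the list was 0.04. *OTX2* (ENSGALG00000034889), a homeobox factor required for RPE and its pigment genes, counted 29186, 30770.3 and 32281 in E5 6hPR libraries, against 21267, 25284 and 19650.1 in E4 6hPR libraries, a log2 fold change of 0.49 (adjusted p = 0.0025, SE 0.10), with the groups apart. *MITF*, the master regulator of pigment genes, counted 3334, 2420.5 and 2042 in E5 6hPR libraries, against 2592, 1259 and 2584 in E4 6hPR libraries, and the groups overlapped (log2 fold change 0.32, adjusted p = 0.43). *PAX6*, an eye field factor (log2 fold change 0.09, adjusted p = 0.82), *SOX9*, which acts with *OTX2* on RPE genes (log2 fold change 0.30, adjusted p = 0.075), and *OTX1* (log2 fold change 0.42, adjusted p = 0.095) did not pass the test. In alternative fits, *SOX9* was called higher by DESeq2, with array weights and with only the 6 libraries fitted, and *OTX1* with array weights. The study, which used DESeq2, reports higher *SOX9* in E5 than in E4 6hPR RPE. *TFEC*, a relative of *MITF*, counted 939, 626 and 692 in E5 6hPR libraries, against 1269, 937 and 1536 in E4 6hPR libraries and missed the threshold (log2 fold change −0.72, adjusted p = 0.078), but it was called lower without E4 6hPR replicate 2 (adjusted p = 0.041).

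In the extracellular matrix 9 of 35 tested genes rose and 1 fell, beside 11.3% higher and 8.41% lower of all genes tested. The median of the list was 0.23, and without E5 6hPR replicate 3 the counts were the same, with 8 of the 9 increases kept. *COL8A2* (ENSGALG00000002298), a short-chain collagen of basement membranes, counted 5008, 5238 and 4790.4 in E5 6hPR libraries, against 1213, 1318 and 891 in E4 6hPR libraries, a log2 fold change of 2.15 (adjusted p = 3e-05, SE 0.24). *EFEMP1*, the fibulin mutated in human Malattia Leventinese, counted 11771, 10408 and 10103 in E5 6hPR libraries, against 5359, 5221 and 3644 in E4 6hPR libraries, with 1.20 (adjusted p = 0.0011, SE 0.21), and *FBLN1*, another fibulin, counted 19538, 19019 and 23808 in E5 6hPR libraries, against 9020.5, 10542 and 8932 in E4 6hPR libraries, with 1.13 (adjusted p = 2.9e-05, SE 0.12). The groups did not overlap in any of the 3. *SERPINF1*, which encodes the neurotrophic factor PEDF that the RPE secretes, rose on the log2 scale by 0.72 (adjusted p = 0.0038), the laminin chain *LAMB2* by 0.70 (adjusted p = 0.0059), agrin (*AGRN*) by 0.64 (adjusted p = 0.0006) and thrombospondin 1 (*THBS1*) by 0.63 (adjusted p = 0.0022). *COL8A1* (ENSGALG00000015253), the partner chain of *COL8A2*, counted 3546, 3806 and 4439 in E5 6hPR libraries, against 1871, 1302 and 1426 in E4 6hPR libraries (log2 fold change 1.37, adjusted p = 0.023), and its call was lost when E5 6hPR replicate 2 or 3 or E4 6hPR replicate 2 or 3 was left out (adjusted p from 0.058 to 0.078). *TGFBI*, a secreted ligand of integrins, was the gene that fell, with 8897, 7874 and 12468 in E5 6hPR libraries, against 17319, 14938 and 16450.1 in E4 6hPR libraries and a log2 fold change of −0.76 (adjusted p = 0.0067, SE 0.18). The chains of type IV collagen, *COL4A1* and *COL4A2*, did not pass the test (log2 fold change −0.01, adjusted p = 1 and log2 fold change 0.08, adjusted p = 0.78). Of 15 integrin subunits 3 rose, and only *ITGA6*, a laminin receptor subunit with 15121, 11615 and 11149 in E5 6hPR libraries, against 6956, 6286 and 6207 in E4 6hPR libraries and a log2 fold change of 0.95 (adjusted p = 0.0013), kept its call whichever library was left out. It was the 1 integrin called higher when any library but E5 6hPR replicate 3 or E4 6hPR replicate 2 was left out.

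Genes of the cell cycle were lower at E5. Of 51 tested genes of DNA replication, 44 fell and 1 rose, with a median of −0.82, and of 49 tested genes of mitosis, 41 fell and none rose, with a median of −0.72. Beside these counts, 8.41% of all genes tested were lower and 11.3% higher. *MCM5* (ENSGALG00000012546), a subunit of the replicative helicase, counted 2855, 2791 and 2482 in E5 6hPR libraries, against 5924, 5754 and 7024 in E4 6hPR libraries, a log2 fold change of −1.20 (adjusted p = 2.4e-05, SE 0.13). *CDC6* (ENSGALG00000051645), which loads that helicase, counted 144, 199 and 162 in E5 6hPR libraries, against 502, 478 and 481 in E4 6hPR libraries, a log2 fold change of −1.54 (adjusted p = 4.1e-05, SE 0.18), the largest decrease of the list. The groups were well apart in both. *PCNA*, the sliding clamp, fell on the log2 scale by 0.62 (adjusted p = 0.0036), *GINS2* by 1.33 (adjusted p = 4e-05), cyclin E2 (*CCNE2*) by 1.23 (adjusted p = 0.00025), and *TK1* and *RRM2*, which supply deoxynucleotides, by 1.11 (adjusted p = 1e-05) and 1.06 (adjusted p = 0.0008). The replication gene that rose was *ORC2*, a subunit of the origin recognition complex, with 2174, 1909 and 1629 in E5 6hPR libraries, against 1226, 1205 and 1368 in E4 6hPR libraries and 0.58 (adjusted p = 0.00072, SE 0.10). In mitosis, *CDK1* (ENSGALG00000003085), the kinase that drives entry, counted 9292, 10504 and 9360.0 in E5 6hPR libraries, against 15569.5, 14321 and 15611 in E4 6hPR libraries, a log2 fold change of −0.64 (adjusted p = 0.0012, SE 0.12). *PLK1*, a mitotic kinase, fell on the log2 scale by 0.77 (adjusted p = 2.7e-05), *AURKA*, the centrosomal kinase, by 0.87 (adjusted p = 5.1e-05), the condensin subunit *NCAPH* by 0.86 (adjusted p = 4.4e-06), topoisomerase *TOP2A* by 0.99 (adjusted p = 0.0015) and *ANLN*, needed for cytokinesis, by 1.00 (adjusted p = 0.0012). The summed level of the mitosis list was 215424 to 249973 in E5 6hPR and 324990 to 399118 in E4 6hPR libraries, and that of DNA replication was 120357 to 127668 in E5 6hPR and 181150 to 217191 in E4 6hPR libraries. Replication genes called lower numbered 39 to 43, and mitosis genes 33 to 43, with any 1 of the 6 libraries left out. The summed level of erythrocyte genes was also lower in every E5 6hPR library, at 352674 to 459209 in E5 6hPR and 815762 to 1262480 in E4 6hPR libraries, and the part of red cells in the cell cycle genes was not tested.

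Among G1 cyclins, inhibitors, and the RB and E2F families, 11 of 25 tested genes fell and 2 rose, beside 8.41% lower and 11.3% higher of all genes tested. The genes that fell numbered 9 without E5 6hPR replicate 3, 8 without E4 6hPR replicate 3 and 12 without E4 6hPR replicate 2. In a fit of the compared groups alone they numbered 7. The inhibitor *CDKN1B* (ENSGALG00000022980), which encodes p27, counted 10442, 11428 and 11269.9 in E5 6hPR libraries, against 6257, 7592 and 6333 in E4 6hPR libraries, a log2 fold change of 0.72 (adjusted p = 9.1e-05, SE 0.09), and *E2F6*, a repressor of the E2F family, rose on the log2 scale by 0.42 (adjusted p = 0.0088). *CDK2*, the kinase of the G1 to S transition, counted 2056, 2673 and 2223 in E5 6hPR libraries, against 4371, 4396 and 4601 in E4 6hPR libraries, a log2 fold change of −0.95 (adjusted p = 4.1e-05, SE 0.11), and on that scale cyclin D3 (*CCND3*) fell by 0.90 (adjusted p = 0.0024), the repressor *E2F7* by 1.54 (adjusted p = 0.0018) and the pocket protein *RBL1* by 1.08 (adjusted p = 0.005). Cyclin D1 (*CCND1*) counted 2290.3, 1920.0 and 1881 in E5 6hPR libraries, against 1979, 1911 and 2103 in E4 6hPR libraries, *CDKN1A*, which encodes p21, 105, 119 and 136 in E5 6hPR libraries, against 112, 125 and 113 in E4 6hPR libraries, and *MYC* 973, 1045 and 1337 in E5 6hPR libraries, against 949.6, 1433 and 1164 in E4 6hPR libraries, and in these 3 the groups overlapped and no call was made. *E2F1* counted 2099, 2066 and 893 in E5 6hPR libraries, against 1969, 2073 and 2038 in E4 6hPR libraries and was not called (log2 fold change −0.37, adjusted p = 0.35), and of the E5 libraries only replicate 3 lay below the E4 libraries.

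Of 19 tested genes of retinal progenitors 3 rose and 1 fell, and of 24 tested genes of retinal neurons 4 rose and none fell, beside 11.3% higher and 8.41% lower of all genes tested, with medians of 0.22 and 0.76 (0.68 where genes with no read in E4 6hPR libraries are set at their lower bound). The eye field factor *SIX6* (ENSGALG00000020359) counted 1147, 1028 and 584 in E5 6hPR libraries, against 620.4, 1514 and 1439.6 in E4 6hPR libraries (log2 fold change −0.32, adjusted p = 0.81), and *RAX*, another factor of the eye field, 857, 1315 and 1257 in E5 6hPR libraries, against 1003, 484 and 819 in E4 6hPR libraries (log2 fold change 0.61, adjusted p = 0.46), and neither passed the test. *LHX2* (ENSGALG00000001124), needed for the optic vesicle, counted 4895, 4945 and 5013 in E5 6hPR libraries, against 3288, 5289 and 3797 in E4 6hPR libraries. With E4 6hPR replicate 2 above every E5 library the groups overlapped in *LHX2* (log2 fold change 0.29, adjusted p = 0.19), and it was called higher without that replicate (adjusted p = 0.013).

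Among the genes that rose, *ATOH7*, *FGF19* and *FGF8* were high in E5 6hPR replicates 1 and 2 and low in replicate 3. *ATOH7* (ENSGALG00000052760), a factor of retinal ganglion cell formation, counted 877, 589 and 60.0 in E5 6hPR libraries, against 7.03, 12.9 and 0 in E4 6hPR libraries, a log2 fold change of 6.41 (adjusted p = 0.0053, SE 1.44). *FGF19* (ENSGALG00000028376), a ligand made by the early retina, counted 656, 526 and 40.9 in E5 6hPR libraries, against 0, 11.7 and 7.36 in E4 6hPR libraries, a log2 fold change of 6.06 (adjusted p = 0.0041, SE 1.31). *FGF8*, another ligand of the early retina, was read in E5 6hPR replicates 1 and 2 alone, with 555, 467 and 0 in E5 6hPR libraries, against 0 in all 3 in E4 6hPR libraries, and its call (adjusted p = 0.026) was lost when E5 6hPR replicate 1 or 2 or E4 6hPR replicate 1, 2 or 3 was left out (adjusted p from 0.051 to 0.13). The same split was seen in genes that missed the threshold, among them *HES5*, an effector of Notch, with 831, 686 and 97.1 in E5 6hPR libraries, against 124, 63.4 and 149 in E4 6hPR libraries, *VSX1* with 1020.2, 854 and 198 in E5 6hPR libraries, against 102, 175 and 96.7 in E4 6hPR libraries, the neurogenic factor *NEUROD1* with 236, 131 and 30.5 in E5 6hPR libraries, against 8.03, 20.0 and 10.5 in E4 6hPR libraries, and the neurofilament gene *NEFM* with 372, 267 and 95.2 in E5 6hPR libraries, against 49.2, 29.4 and 34.7 in E4 6hPR libraries. Without E5 6hPR replicate 3, *VSX1* was called (adjusted p = 0.047), and 7 neuron genes in place of 4 and 4 progenitor genes in place of 3 were called higher. With all 6 libraries, DESeq2 and array weights each called *VSX1* and *NEFM* higher. So did edgeR for *VSX1*, a fit of the compared groups alone for *NEFM*, and DESeq2 for *NEUROD1*. Neuron genes called higher numbered 10 by DESeq2, 11 with array weights and 2 with the compared groups alone. Over the whole neuron list the summed level was 23197, 22953 and 18720 in E5 6hPR libraries, against 14638, 16192 and 16742 in E4 6hPR libraries. For 15 of its 24 genes the highest library was E5 6hPR replicate 1, and for none was it replicate 3. The neuron genes called numbered 2 when E5 6hPR replicate 1 or E4 6hPR replicate 3 was left out, and the progenitor genes called higher numbered 1 without E5 6hPR replicate 1 or 2, or E4 6hPR replicate 3. *HMGA2*, a chromatin protein of progenitors, was the progenitor gene that fell, on the log2 scale by 0.65 (adjusted p = 0.0063). Retinal cells that stayed with the sheet and RPE cells that express such genes cannot be told apart in bulk RNA.

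Of 31 tested genes of FGF signalling 7 rose and none fell, beside 11.3% higher and 8.41% lower of all genes tested, with a median of 0.13. *DUSP1* (ENSGALG00000040360), a phosphatase of MAP kinases, counted 8168, 8967 and 5900.0 in E5 6hPR libraries, against 1372, 3036 and 896 in E4 6hPR libraries, a log2 fold change of 2.28 (adjusted p = 0.00022, SE 0.33), and *DUSP5* (ENSGALG00000032618), a nuclear phosphatase of ERK, counted 12670, 14411 and 13008 in E5 6hPR libraries, against 4591, 9935 and 3931 in E4 6hPR libraries, a log2 fold change of 1.24 (adjusted p = 0.0044, SE 0.27). *ETV5* (ENSGALG00000005768), an ETS factor induced by FGF signalling, counted 5649, 6124 and 6084 in E5 6hPR libraries, against 2387, 4244 and 2291 in E4 6hPR libraries, a log2 fold change of 1.06 (adjusted p = 0.00048, SE 0.17). All 3 were higher in every E5 library, and in each of them E4 6hPR replicate 2 held the highest E4 value. The ligand genes *FGF2* itself, with 252, 304 and 298 in E5 6hPR libraries, against 127, 159.8 and 116 in E4 6hPR libraries and 1.09 (adjusted p = 0.0024, SE 0.22), and *FGF1*, with 95.8, 125 and 172 in E5 6hPR libraries, against 15.1, 37.6 and 21.0 in E4 6hPR libraries and 2.45 (adjusted p = 0.0012, SE 0.44), also rose. The receptors did not pass the test, *FGFR1* with a log2 fold change of 0.10 (adjusted p = 0.59), *FGFR2* with −0.36 (adjusted p = 0.21), *FGFR3* with −0.13 (adjusted p = 0.54) and *FGFR4* with 0.44 (adjusted p = 0.063). *DUSP6*, an ERK phosphatase that counted 2186, 1887 and 1659 in E5 6hPR libraries, against 1420.4, 2494 and 1239 in E4 6hPR libraries, and the feedback inhibitor *SPRY1*, with 1056, 871 and 769 in E5 6hPR libraries, against 457, 843 and 399.6 in E4 6hPR libraries, were not called (log2 fold change 0.21, adjusted p = 0.51 and log2 fold change 0.73, adjusted p = 0.059). The count of this list moved with the library dropped, in both directions. Dropping E4 6hPR replicate 2 raised it to 11 genes called higher. Among them were *DUSP6* (adjusted p = 0.022), *SPRY1* (adjusted p = 0.0044), *ETV4* (adjusted p = 0.022) and *FGFR4* (adjusted p = 0.042). Dropping E4 6hPR replicate 3 lowered it to 5, and 1 gene was then called lower. For each of the remaining libraries the count was 6 or 7, with none lower. A fit of the compared groups alone called 4 higher.

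Of 38 tested genes of BMP and TGF-beta signalling 4 were higher and 3 lower, beside 11.3% higher and 8.41% lower of all genes tested. *WFIKKN2* (ENSGALG00000007367), which encodes a secreted inhibitor of myostatin and related ligands and is among the most abundant transcripts of this tissue, counted 219901, 221308 and 222008 in E5 6hPR libraries, against 52177, 102107 and 46026 in E4 6hPR libraries, a log2 fold change of 1.82 (adjusted p = 0.00023, SE 0.26). Its relative *WFIKKN1* (ENSGALG00000000044) went the other way, with 181, 214 and 268 in E5 6hPR libraries, against 1438, 993 and 2144 in E4 6hPR libraries and −2.73 (adjusted p = 7.7e-05, SE 0.34). The BMP antagonist noggin (*NOG*) counted 1259.6, 1509 and 887 in E5 6hPR libraries, against 236, 672 and 345 in E4 6hPR libraries, with 1.65 (adjusted p = 0.0012, SE 0.30), and another antagonist, *GREM1*, was low, with 1.74, 7.86 and 4.76 in E5 6hPR libraries, against 39.1, 25.8 and 63.1 in E4 6hPR libraries and −3.13 (adjusted p = 0.00079, SE 0.54). *LTBP1*, which holds latent TGF-beta in the matrix, rose by a log2 fold change of 0.95 (adjusted p = 0.00014). *BMP4* counted 3489.8, 3851 and 2905 in E5 6hPR libraries, against 1758, 4616 and 1787 in E4 6hPR libraries (log2 fold change 0.48, adjusted p = 0.33) and *BMP7* 6395, 5414 and 5772 in E5 6hPR libraries, against 6491, 5298 and 5696 in E4 6hPR libraries (log2 fold change 0.01, adjusted p = 0.99), and neither was called. Without E4 6hPR replicate 2, 7 genes of the list were higher, *BMP4* (adjusted p = 0.012) among them, and 2 lower.

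Of 45 tested WNT genes 7 rose and 5 fell, beside 11.3% higher and 8.41% lower of all genes tested. Secreted antagonists were among the increases: *SFRP1* (ENSGALG00000003473) counted 57319, 57416 and 54742 in E5 6hPR libraries, against 20158, 34318 and 19342 in E4 6hPR libraries, a log2 fold change of 1.25 (adjusted p = 0.00028, SE 0.19), and *DKK3* 6657, 7656 and 6088 in E5 6hPR libraries, against 2610.0, 3389 and 2983 in E4 6hPR libraries, with 1.19 (adjusted p = 3.3e-05, SE 0.13). *SFRP5*, of the same family as *SFRP1*, was lower and weakly expressed, with 13.1, 26.9 and 33.3 in E5 6hPR libraries, against 69.3, 94.0 and 76.8 in E4 6hPR libraries and −1.78 (adjusted p = 0.0017, SE 0.34). The receptor *FZD7* rose by a log2 fold change of 0.64 (adjusted p = 0.00069). *LEF1*, a nuclear effector, counted 1659, 1692 and 1585 in E5 6hPR libraries, against 2643, 2406 and 3435 in E4 6hPR libraries, with −0.76 (adjusted p = 0.00085, SE 0.13), and *AXIN2*, a common target gene of the pathway, counted 1946, 1786 and 1969.8 in E5 6hPR libraries, against 1915, 1659 and 1849 in E4 6hPR libraries and overlapped (log2 fold change 0.07, adjusted p = 0.75). The ligand *WNT2B* counted 394, 355 and 234 in E5 6hPR libraries, against 1278, 408 and 1651 in E4 6hPR libraries (log2 fold change −1.57, adjusted p = 0.017), a call that was lost when E5 6hPR replicate 3 or E4 6hPR replicate 1 or 3 was left out (adjusted p from 0.073 to 0.098). Without E5 6hPR replicate 3 the list held 5 increases and 4 decreases, without E4 6hPR replicate 2 it held 5 and 7, and without E4 6hPR replicate 1 it held 7 and 3.

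Markers of other cell types were counted in the same way, beside 11.3% higher and 8.41% lower of all genes tested. Of 19 tested genes of the periocular mesenchyme 10 fell and 2 rose, with a median of −0.87, and 8 of the 10 that fell encode nuclear factors. *EYA2* (ENSGALG00000004508), a transcriptional coactivator, counted 991, 893 and 1144 in E5 6hPR libraries, against 3357, 2362 and 3753 in E4 6hPR libraries, a log2 fold change of −1.63 (adjusted p = 0.00015, SE 0.22). *TWIST1* counted 806, 786 and 851 in E5 6hPR libraries, against 1865, 1632 and 1901 in E4 6hPR libraries, with −1.14 (adjusted p = 0.0006, SE 0.19), on that scale *LMX1B* fell by 1.39 (adjusted p = 0.0014), *FOXC1* by 0.99 (adjusted p = 0.0079) and *FOXC2* by 1.07 (adjusted p = 0.0058), and the small proteoglycan *LUM* by 1.15 (adjusted p = 0.0055). *POSTN*, a matrix protein, counted 2578, 1997 and 3412 in E5 6hPR libraries, against 1273, 808 and 1704 in E4 6hPR libraries and rose by a log2 fold change of 1.11 (adjusted p = 0.0059), and the abundant fibrillar collagens *COL1A1* and *COL1A2* were not called (log2 fold change −0.03, adjusted p = 0.97 and log2 fold change 0.12, adjusted p = 0.57). The summed level of the list, which those collagens lead, overlapped, at 175399 to 199848 in E5 6hPR and 155944 to 201077 in E4 6hPR libraries. Without E5 6hPR replicate 3, 7 genes were lower and 1 higher, and without E4 6hPR replicate 3, 6 and 1. The part of carried-over mesenchyme in any other result was not tested.

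The summed level of 10 erythrocyte genes was 380697, 459209 and 352674 in E5 6hPR libraries, against 815762, 1262480 and 913875 in E4 6hPR libraries, and 4 of the 10 were called lower. *HBZ* (ENSGALG00000023740), an embryonic alpha-type globin, counted 191778, 211935 and 170340 in E5 6hPR libraries, against 474450, 703343 and 537899 in E4 6hPR libraries, with −1.57 (adjusted p = 0.0038, SE 0.34), and *SLC4A1*, the anion exchanger of red cells, 7538, 7497 and 6079 in E5 6hPR libraries, against 17012, 23407 and 19625 in E4 6hPR libraries, with −1.50 (adjusted p = 0.01, SE 0.38). *HBA1* (log2 fold change −0.95, adjusted p = 0.15) and *HBBA* (log2 fold change 0.83, adjusted p = 0.49) were not called, and reads of the globin genes may be split among near-identical copies. With E5 6hPR replicate 1 left out 3 of the 10 were called, and with any other of the 6 left out 2 were. No gene of 9 for endothelium was called: the receptor *KDR* counted 12969, 12285 and 10278 in E5 6hPR libraries, against 12047, 11785 and 8798 in E4 6hPR libraries, and the junction protein *CLDN5* 4108, 3871 and 3279 in E5 6hPR libraries, against 3939, 3729.8 and 2769 in E4 6hPR libraries, so that these overlapped between the stages. Of 17 leukocyte genes *CSF1R*, the receptor of macrophage growth factor, was the 1 called: it counted 9590.2, 8703 and 8979 in E5 6hPR libraries, against 3106, 2688 and 2848 in E4 6hPR libraries, with 1.66 (adjusted p = 4.9e-05, SE 0.20), whereas *PTPRC*, carried by all leukocytes, counted 255, 231 and 259 in E5 6hPR libraries, against 314, 279.6 and 239 in E4 6hPR libraries and the complement gene *C1QA* 179, 171 and 113 in E5 6hPR libraries, against 215, 297 and 331 in E4 6hPR libraries, neither of them called. The summed level of the 17 was 13406 to 14204 in E5 6hPR and 8030.0 to 9179 in E4 6hPR libraries, a sum that *CSF1R* leads. Beside these counts of calls, 11.3% of all genes tested were higher and 8.41% lower.

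**Figure D3:**
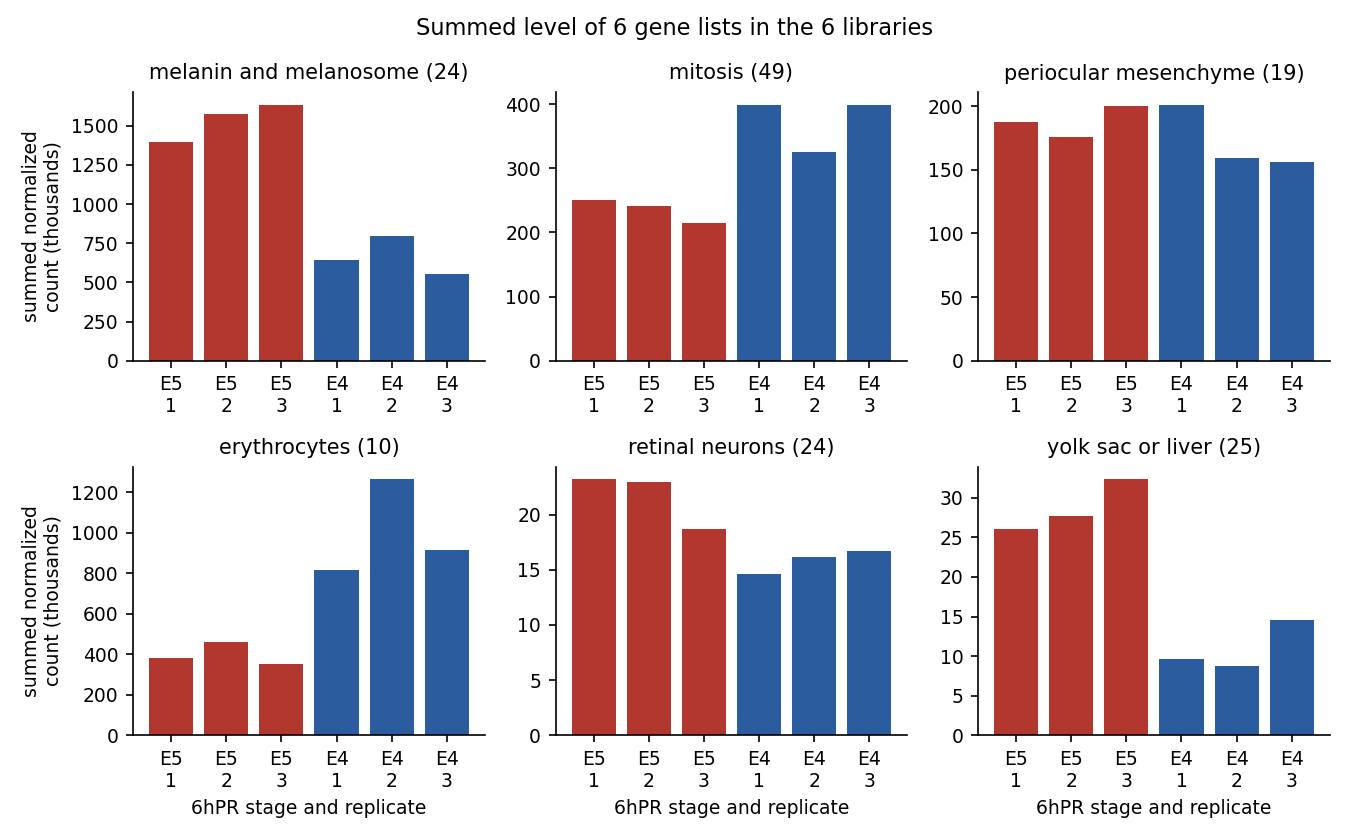
Summed normalized counts divided by 1000 (y axis, from 0) of 6 gene lists in the 6 libraries of 6hPR RPE (x axis, stage and replicate, E5 left in red, E4 right in blue), with the number of genes in brackets. The melanin list lies higher and the mitosis and erythrocyte lists lie lower in every E5 library, the mesenchyme list overlaps, neuron genes are lowest among the E5 libraries in replicate 3 (18720), and yolk sac or liver genes are highest there (32322).

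Genes known from the yolk sac and liver had the largest median of the lists. Of 25 tested, 14 rose and none fell, beside 11.3% higher and 8.41% lower of all genes tested, with a median of 2.44. Without E5 6hPR replicate 3, the highest library for 20 of the 25, 11 rose with a median of 1.85, or 1.76 with the 6 genes that had no read in E4 6hPR libraries at their lower bound. *APOB* (ENSGALG00000016491), the scaffold of lipoprotein particles, counted 89.7, 47.1 and 1047 in E5 6hPR libraries, against 0 in all 3 in E4 6hPR libraries, at least 122-fold higher with 3 counts per E4 library, and at least 21.2-fold without replicate 3. *TTR* (ENSGALG00000015143), the thyroxine carrier, counted 418, 506 and 3353 in E5 6hPR libraries, against 50.2, 38.8 and 29.4 in E4 6hPR libraries, a log2 fold change of 4.51 (adjusted p = 0.00017, SE 0.63), or 3.56 (adjusted p = 0.00032) without replicate 3. Apolipoprotein *APOA1* counted 1345, 1297 and 4627 in E5 6hPR libraries, against 445, 392 and 246 in E4 6hPR libraries, with 2.52 (adjusted p = 0.0018, SE 0.48), and albumin (*ALB*), with 128, 95.4 and 1328 in E5 6hPR libraries, against 79.3, 50.5 and 84.1 in E4 6hPR libraries, was not called (log2 fold change 1.86, adjusted p = 0.074). By limma *ALB* was called higher when E5 6hPR replicate 1 or 2 was left out (adjusted p from 0.022 to 0.045). With all libraries it was called higher by edgeR and by DESeq2. In these 4 genes, E5 6hPR replicates 1 and 2 lay far below replicate 3 and still above every E4 library. *SERPIND1* and *APOA4*, which like *APOB* had no read in E4 6hPR libraries, were at least 34.5-fold and 36.6-fold higher, and at least 11.3-fold and 6.94-fold higher without replicate 3. In the members that follow, E5 6hPR replicates 1 and 2 did not lie far below replicate 3. *HNF4A* (ENSGALG00000004285), a nuclear receptor of the liver and gut, counted 713, 591 and 716 in E5 6hPR libraries, against 207, 152 and 186 in E4 6hPR libraries, a log2 fold change of 1.89 (adjusted p = 4.2e-06, SE 0.16). The iron carrier transferrin (*TF*) counted 18050.5, 20211 and 16802 in E5 6hPR libraries, against 6464, 5391 and 11648 in E4 6hPR libraries, with 1.31 (adjusted p = 0.0036, SE 0.28), and *APOH* counted 477, 503 and 678 in E5 6hPR libraries, against 106, 209 and 111 in E4 6hPR libraries, with 2.01 (adjusted p = 0.00036, SE 0.31). *RBP4* (ENSGALG00000015374), the plasma carrier of retinol, was low in replicate 3, with 2139.7, 2042 and 151 in E5 6hPR libraries, against 0, 20.0 and 9.46 in E4 6hPR libraries, a log2 fold change of 7.54 (adjusted p = 0.00064, SE 1.25) and 8.81 (adjusted p = 0.00051) without that replicate. *RBP4* was also called higher at E5 in developing RPE (log2 fold change 5.40, adjusted p = 0.0058). So were *ATOH7* (log2 fold change 5.85, adjusted p = 0.0085) and *FGF19* (log2 fold change 4.54, adjusted p = 0.021), which shared its split between the E5 6hPR libraries. The E5 developing libraries were widely spread in these genes, at 1007 ± 874 for *RBP4*, 1807 ± 2559 for *ATOH7* and 757 ± 1055 for *FGF19* (SD, n = 3). With FGF2 limma called none of them between the stages. The log2 fold changes there were 2.63 (adjusted p = 0.13), 0.46 (adjusted p = 0.86) and −0.49 (adjusted p = 0.83).

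The largest changes, ranked among genes that were separated between the stages and called with and without E5 6hPR replicate 3, held further genes outside the lists. *ACSBG1* (ENSGALG00000003286), an acyl-CoA synthetase, counted 5636, 5325 and 4849 in E5 6hPR libraries, against 276, 603 and 209 in E4 6hPR libraries, a log2 fold change of 4.01 (adjusted p = 1.1e-05, SE 0.39). *GCGR* (ENSGALG00000011219), the glucagon receptor, counted 6915, 8150.1 and 6543 in E5 6hPR libraries, against 557, 1249.9 and 307 in E4 6hPR libraries, a log2 fold change of 3.58 (adjusted p = 0.00018, SE 0.50). *IL13RA2*, the decoy receptor of interleukin 13, counted 972, 1046 and 1084 in E5 6hPR libraries, against 45.2, 108 and 51.5 in E4 6hPR libraries, with 4.02 (adjusted p = 1e-05, SE 0.39). The groups were far apart in each, and E4 6hPR replicate 2 was the highest E4 library. The nucleotide receptor *P2RY4* rose on the log2 scale by 4.28 (adjusted p = 3.9e-05), the tight junction genes *CLDN20* and *CLDN2* by 5.23 (adjusted p = 0.0011) and 3.48 (adjusted p = 0.00089), and the potassium channel subunit *KCNIP1* by 5.28 (adjusted p = 0.0088). *COLEC10*, a collectin, counted 233, 238 and 231 in E5 6hPR libraries, against 35.1, 18.8 and 0 in E4 6hPR libraries (log2 fold change 5.07, adjusted p = 0.013), and its call was lost when E4 6hPR replicate 3 was left out (adjusted p = 0.062).

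The largest decreases that held without E5 6hPR replicate 3 were ranked in the same way. *ALX4* and *ALX1*, homeobox factors of the head mesenchyme, counted 550.1, 459 and 442 in E5 6hPR libraries, against 1772, 1138 and 1773 in E4 6hPR libraries (log2 fold change −1.67, adjusted p = 0.00022) and 212, 104 and 185 in E5 6hPR libraries, against 603, 439 and 1095 in E4 6hPR libraries (log2 fold change −2.05, adjusted p = 0.0032). The homeobox gene *IRX2* counted 280.3, 252 and 276 in E5 6hPR libraries, against 1153, 765 and 1016 in E4 6hPR libraries (log2 fold change −1.84, adjusted p = 0.00064), the osteoblast factor *SP7* 25.2, 30.3 and 20.9 in E5 6hPR libraries, against 91.3, 122 and 119.9 in E4 6hPR libraries (log2 fold change −2.11, adjusted p = 0.0012), and *TFAP2E* 114, 86.4 and 93.3 in E5 6hPR libraries, against 329, 224 and 475 in E4 6hPR libraries (log2 fold change −1.75, adjusted p = 0.00069). None of these overlapped between the stages. *GFI1B*, a factor of red cell and platelet development, fell on the log2 scale by 2.04 (adjusted p = 0.00038), and *MFSD2B*, a lipid transporter of red cells and platelets, by 1.68 (adjusted p = 0.0043). *CLEC19A*, a lectin gene, had the largest decrease of this rank, with 45.3, 69.6 and 51.4 in E5 6hPR libraries, against 437, 354 and 1399 in E4 6hPR libraries and −3.45 (adjusted p = 0.0015, SE 0.64). *SLC18A3*, the vesicular transporter of acetylcholine, fell on the log2 scale by 2.49 (adjusted p = 0.001), the prostaglandin receptor *PTGFR* by 1.87 (adjusted p = 0.0008), the adipokine *C1QTNF12* by 1.86 (adjusted p = 5.6e-05), the protease inhibitor *PI15* by 1.77 (adjusted p = 0.0033) and the GTPase regulator *ARHGAP28* by 1.71 (adjusted p = 0.0016).

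Of the 3600 genes called, 1088 lost their call without E5 6hPR replicate 3. Those with the largest fold changes were fibrinogen gamma (*FGG*), *APOC3*, *CCKAR*, *FGF18*, *MMP9*, *ALDH1A3*, *PRLR*, *SLC22A16*, *PAPPA* and *GM2A*. *APOC3*, an apolipoprotein, counted 65.3, 97.6 and 717 in E5 6hPR libraries, against 14.1, 10.6 and 17.9 in E4 6hPR libraries, and *FGG* 36.6, 30.3 and 244 in E5 6hPR libraries, against 0, 10.6 and 0 in E4 6hPR libraries, so that replicate 3 led both, with log2 fold changes of 2.48 (adjusted p = 0.059) and 4.59 (adjusted p = 0.12) without it. In the other 8 it was not far from both other E5 libraries. *MMP9*, a matrix metalloproteinase, counted 689, 879 and 999 in E5 6hPR libraries, against 168, 278 and 116 in E4 6hPR libraries, all 3 E5 libraries above the E4 libraries, with 2.27 (adjusted p = 0.047, SE 0.76), and 2.15 (adjusted p = 0.13) without replicate 3. *CCKAR*, the cholecystokinin receptor, counted 447, 448 and 635 in E5 6hPR libraries, against 35.1, 130.4 and 59.9 in E4 6hPR libraries, with 2.77 (adjusted p = 0.059) without it, and *FGF18* 403, 315 and 448 in E5 6hPR libraries, against 50.2, 134 and 54.7 in E4 6hPR libraries, with 2.31 (adjusted p = 0.058). The prolactin receptor *PRLR*, with 535, 339 and 604 in E5 6hPR libraries, against 132, 159 and 119.9 in E4 6hPR libraries, and the ganglioside activator *GM2A*, with 2302, 2777 and 3235 in E5 6hPR libraries, against 453, 1922 and 600.5 in E4 6hPR libraries, were higher at E5 by log2 fold changes of 1.81 (adjusted p = 0.028) and 1.77 (adjusted p = 0.03). The protease *PAPPA*, with 135, 162 and 118 in E5 6hPR libraries, against 846, 243 and 547 in E4 6hPR libraries, and the carnitine transporter *SLC22A16*, with 61.8, 30.3 and 18.1 in E5 6hPR libraries, against 99.4, 143 and 107 in E4 6hPR libraries, had log2 fold changes of −1.81 (adjusted p = 0.033) and −1.81 (adjusted p = 0.032). Leaving out E4 6hPR replicate 1 or 3 also ended the calls of 9 of these 10 genes, all but *APOC3*.

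The stage difference of injured RPE was set beside that of developing RPE, with which it shares no library. In developing RPE 1978 genes (10.8%) were higher and 2037 (11.1%) lower at E5. Of the genes higher in 6hPR RPE 924 were also higher in developing RPE (44.8% of the 6hPR increases and 46.7% of the developing ones), and of the genes lower in 6hPR RPE 889 were lower in developing RPE (57.8% of the 6hPR decreases and 43.6% of the developing ones). In developing RPE 12 of the 24 melanin genes were higher and 2 lower at E5, 15 of the 28 transport genes were higher and 1 lower, and 47 of the 51 replication genes were lower, *SLC16A8* with a log2 fold change of 3.04 (adjusted p = 2.1e-05) and *CDC6* with −1.12 (adjusted p = 0.00039). Between 6hPR and developing RPE 53 genes were called in opposite directions. The difference between the stage differences, tested per gene, was called for 546 genes (2.99%), 324 above and 222 below 0, and 279 of these were also called in 6hPR RPE. Without E5 6hPR replicate 3 it was called for 244 genes and without E4 6hPR replicate 2 for 713.

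**Figure D4:**
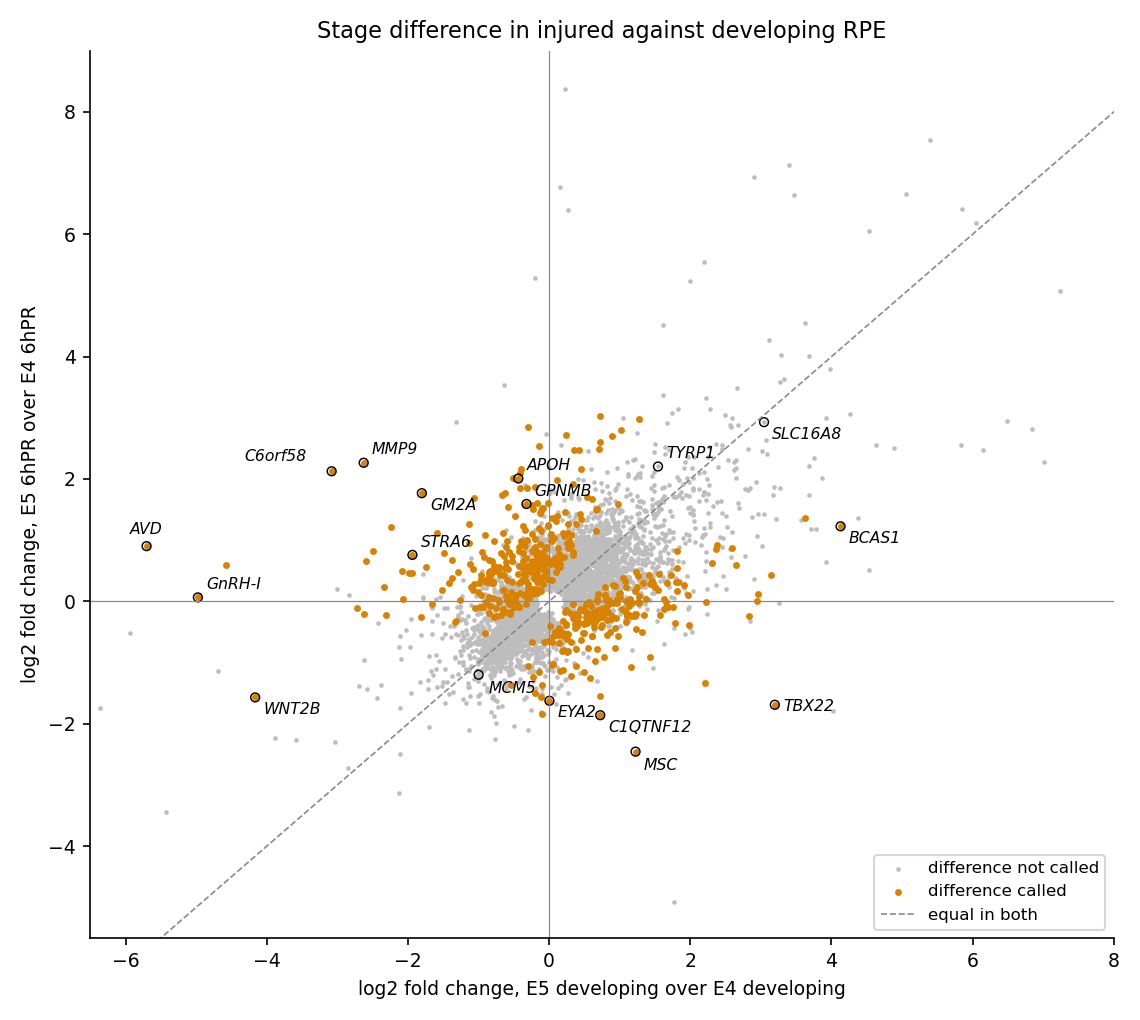
Log2 fold change of E5 over E4 in 6hPR RPE (y axis) against that in developing RPE (x axis) for 5186 genes called in either and with a mean of 100 or more in at least 1 of the 4 groups, with 491 genes for which limma called the difference between the 2 fold changes in orange and a dashed line where both are equal. Named genes off the line include *STRA6*, *GPNMB*, *MMP9* and *C6orf58* above it and *MSC*, *TBX22*, *EYA2* and *BCAS1* below it, and *SLC16A8*, *TYRP1* and *MCM5* lie near it.

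Of 28 genes named in the text whose difference from developing RPE was called, 12 kept that call whichever of the 12 libraries was left out. *STRA6* (ENSGALG00000001449), the retinol-binding protein receptor, counted 47098 ± 7060.1 in E5 6hPR and 28116 ± 6737 in E4 6hPR RPE, and 2241 ± 339 in E5 developing and 8551 ± 846 in E4 developing RPE (SD, n = 3 each). Its log2 stage difference was 0.76 (adjusted p = 0.008) in 6hPR and −1.94 (adjusted p = 1.2e-05) in developing RPE, opposite in sign, and the difference between them was 2.70 (SE 0.26, adjusted p = 0.00014). The sodium pump subunit *ATP1B1* differed in the same sense, by 0.90 (SE 0.12, adjusted p = 0.0014) on the log2 scale. *OTX1*, lower at E5 in developing RPE (log2 fold change −0.97, adjusted p = 0.00082) and not called after surgery, differed by 1.39 (SE 0.24, adjusted p = 0.0086). *EYA2*, lower at E5 after surgery, had a log2 stage difference of 0.00 (adjusted p = 1) in developing RPE, a difference of −1.63 (SE 0.31, adjusted p = 0.013). *TGFBI* was higher at E5 in developing RPE, at 0.56 (adjusted p = 0.035) on the log2 scale, and lower after surgery, a difference of −1.32 (SE 0.25, adjusted p = 0.013).

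Some of the wide differences lay in genes that were scarce in developing RPE. *C6orf58*, which encodes a secreted protein, counted 353 ± 107 in E5 6hPR and 80.0 ± 20.5 in E4 6hPR RPE, and 0 ± 0 in E5 developing and 4.29 ± 3.06 in E4 developing RPE (SD, n = 3 each). Its difference of 5.21 (SE 0.60, adjusted p = 0.00046) on the log2 scale depends on the pseudocount, since it had no read in E5 developing libraries, and it held whichever library was left out. *MMP9* had the same form, with 855 ± 157 in E5 6hPR and 187 ± 83.1 in E4 6hPR RPE, and 0 ± 0 in E5 developing and 5.01 ± 4.89 in E4 developing RPE (SD, n = 3 each), but its difference of 4.89 (SE 1.07, adjusted p = 0.025) lost its call in 6 of 12 left-out fits. *APOH*, a plasma glycoprotein of the liver, was higher at E5 after surgery and had a log2 stage difference of −0.44 (adjusted p = 0.37) in developing RPE, a difference of 2.44 (SE 0.44, adjusted p = 0.01). *MSC*, the repressor musculin, counted 17.4, 7.86 and 21.9 in E5 6hPR libraries, against 71.3, 102 and 74.7 in E4 6hPR libraries, a log2 fold change of −2.46 (adjusted p = 0.0046), against 1.22 (adjusted p = 0.13) in developing RPE, a difference of −3.68 (SE 0.77, adjusted p = 0.02) that was lost without E5 6hPR replicate 2 (adjusted p = 0.051). *GPNMB* counted 124487 ± 14057 in E5 6hPR and 41231 ± 3399.7 in E4 6hPR RPE, and 19704 ± 12879.6 in E5 developing and 21787 ± 3425 in E4 developing RPE (SD, n = 3 each), and its difference of 1.91 (SE 0.44, adjusted p = 0.029) on the log2 scale lost its call in 7 of 12 left-out fits.

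With FGF2 more genes were called, 3058 (16.7%) higher and 2340 (12.8%) lower in E5 than in E4 6hPR+FGF2 RPE. Of the genes higher in 6hPR RPE 1024 were also higher with FGF2 (49.7% of the 6hPR list and 33.5% of the 6hPR+FGF2 list), and of those lower 824 (53.6% and 35.2%). In all 3 conditions, 617 increases and 626 decreases were called. A further 694 increases and 427 decreases were called in 6hPR RPE and in neither of the others, but the difference from both was called for 26 and 8 of them. The difference between the stage differences without and with FGF2 was called for 465 genes (2.54%), 167 above and 298 below 0, with 35.9% above 0 and, under quantile normalization, 46.0%. That count ran from 46 without E5 6hPR+FGF2 replicate 1 to 1970 without E4 6hPR replicate 2. *FGF1* was among those called, with a log2 stage difference of 2.45 (adjusted p = 0.0012) without and −0.64 (adjusted p = 0.31) with FGF2, a difference of 3.09 (SE 0.63, adjusted p = 0.026). *ORC2* had a log2 stage difference of 0.58 (adjusted p = 0.00072) without and −0.03 (adjusted p = 0.86) with FGF2, a difference of 0.61 (SE 0.14, adjusted p = 0.038). Neither kept this call in every left-out fit: *FGF1* lost it in 7 of 12 and *ORC2* in 8. The increases of *TYRP1*, *SLC16A8* and *CDKN1B* and the decreases of *MCM5* and *CDK1* were called with FGF2 as well, with log2 fold changes of 1.26 (adjusted p = 0.0055), 1.95 (adjusted p = 0.00054), 0.57 (adjusted p = 0.00046), −1.31 (adjusted p = 1.3e-05) and −0.85 (adjusted p = 0.00015).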

How the data were processed

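RNA of E5 6hPR and E4 6hPR RPE was sequenced in 3 pools per stage, among 18 libraries. Per the labels and methods, the authors used Cutadapt and Trim Galore for trimming, STAR for alignment to GRCg6a and StringTie for counts per gene, dropped genes with few counts and deposited counts normalized by DESeq2 size factors, which are the signal values used here. Tool versions and the use of strand in counting are not given in the sources used here, so a gene and an antisense partner may share reads. All deposited values were whole multiples of 1 read per library (100% within 1e-06). Library sizes are reads on genes. The lower bounds for genes with no read cover counting error only, whereas SDs are between pools and SEs are from the limma fit.

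Of 18336 genes 18287 with a sum of 10 or more were tested on log2 of the value plus 0.5 with limma 3.58.1 (R 4.3.3), with 6 group means, a mean-variance trend and Benjamini-Hochberg adjustment at 0.05. Nothing says whether pools of a group came from separate batches of eggs, so p-values measure the spread between pools, and an exact permutation of 3 against 3 could not go below 0.1. Counts were simulated for 18136 genes of E5 6hPR against E4 6hPR. Of genes changed by a log2 of 1, 98 of 100 were recovered, and of those changed by 2, 100 of 100. Among unchanged genes 10 were called. This recovery describes the simulated counts alone. It cannot stand for scarce genes, genes with a wide spread between pools, or libraries that stood apart. In the real libraries *NEUROD1*, with a log2 fold change of 2.99 (SE 1.32), was not called by limma (adjusted p = 0.13). The 3600 calls fell to 2366 without E4 6hPR replicate 3. Alternatives were other pseudocounts (1, 5), filters (none, a mean of 10), TMM and quantile scaling, array weights, a fit of the compared groups alone, a replicate block, edgeR 4.0.16 and DESeq2 1.42.0 on recovered reads, and each library left out.

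Genes were named from 24 lists and by rank: the 15 largest increases and decreases with a mean of 100 or more that did not overlap and held without E5 6hPR replicate 3, the 10 largest calls lost without it, and the 8 largest differences in each direction between stage differences. Comparisons, members and lists were chosen with earlier results of these data known. Symbols on more than 1 row (33) were not named, and some members of the lists are not reported here by name.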

Additional observations from a re-analysis of the deposited data

Results flagged for a closer look

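The difference between the stage difference in 6hPR RPE and that in developing RPE was called by limma for 546 genes, and that between 6hPR and 6hPR+FGF2 RPE for 465. These were singled out because the effect of stage differed between conditions by a test of the difference itself, given below as log2 differences for the genes named. The difference from developing RPE was called for 1 of the 10 RPE factors, 3 of the 24 melanin, 1 of the 24 retinoid, 3 of the 28 transport and 3 of the 35 matrix genes, beside 2.99% of all genes tested. It was 2.70 for *STRA6*, 1.91 for *GPNMB*, 1.39 for *OTX1* and 0.90 for *ATP1B1*, and −1.32 for the matrix gene *TGFBI* and −2.25 for *COL8A1*. *COL8A1*, which counted 3931 ± 459 in E5 6hPR and 1533 ± 299 in E4 6hPR RPE, and 18992 ± 6201 in E5 developing and 1492 ± 226 in E4 developing RPE (SD, n = 3 each), was higher at E5 in both conditions, and its difference lost its call in 10 of 12 left-out fits. Among signalling and mesenchyme genes the values were 2.60 for *WNT2B*, −1.63 for *EYA2* and −1.74 for *IRX2*, of which *WNT2B* lost its call in 6 and *IRX2* in 10 of 12 left-out fits, and *APOH* stood at 2.44.

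The largest of these differences, by rank among genes with a mean of 100 or more in a group, were 6.61 for *AVD*, an avidin gene, 5.21 for *C6orf58*, 5.17 for *LRTM1*, 5.04 for *GnRH-I*, which encodes a gonadotropin-releasing hormone, 4.89 for *MMP9*, 3.57 for *GM2A*, 3.47 for *BAALC* and 3.32 for *ESYT3*, and in the other direction −4.89 for *TBX22*, −3.68 for *MSC*, −3.54 for *KRT23*, −2.90 for *BCAS1*, −2.58 for *C1QTNF12*, −2.37 for *RYR3*, −2.33 for *RGS16* and −2.28 for *SLC30A10*. *AVD* counted 134 ± 33.3 in E5 6hPR and 80.4 ± 53.4 in E4 6hPR RPE, and 5.92 ± 10.3 in E5 developing and 89.2 ± 28.8 in E4 developing RPE, and *GnRH-I* 306 ± 47.3 in E5 6hPR and 295 ± 73.5 in E4 6hPR RPE, and 6.59 ± 5.71 in E5 developing and 122 ± 37.5 in E4 developing RPE (SD, n = 3 each), so that both were scarcer in E5 developing RPE than in the other 3 groups. Their E5 developing values lay near the floor, with an SD above the mean in *AVD*. The size of both log2 differences therefore depends on the pseudocount. *TBX22*, a T-box factor, counted 29.9 ± 8.35 in E5 6hPR and 109 ± 68.6 in E4 6hPR RPE, and 1649 ± 1324 in E5 developing and 145 ± 70.8 in E4 developing RPE (SD, n = 3 each), and was abundant in E5 developing RPE alone of these 4 groups. *BCAS1* counted 68.7 ± 23.2 in E5 6hPR and 32.7 ± 19.0 in E4 6hPR RPE, and 1344 ± 408 in E5 developing and 76.7 ± 27.8 in E4 developing RPE (SD, n = 3 each). In 6hPR RPE the stage difference itself was not called for *AVD*, *LRTM1*, *GnRH-I*, *BAALC*, *TBX22*, *BCAS1*, *RYR3* or *RGS16*. The difference between conditions lost its call without at least 1 library for *AVD*, *LRTM1*, *GnRH-I*, *MMP9*, *GM2A*, *BAALC*, *MSC*, *BCAS1*, *RGS16* and *SLC30A10*, and held in every such fit for *C6orf58*, *ESYT3*, *TBX22*, *KRT23*, *C1QTNF12* and *RYR3*.

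Against 6hPR+FGF2 RPE the values were 3.09 for *FGF1* and 0.61 for *ORC2*, and the hexokinase gene *HK2* and the early response gene *EGR1* differed from developing RPE by −0.75 and −0.87, calls that *HK2* lost in 7 and *EGR1* in 10 of 12 left-out fits.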

How the results depend on the processing

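Of the 142 genes named above with a call in 6hPR RPE, 105 kept it in every alternative and left-out fit, 18 lost it without at least 1 library, 13 of them without E5 6hPR replicate 3, and 31 lost it when only the 6 libraries were fitted, which leaves fewer libraries to estimate the spread. edgeR lost 3 of them, DESeq2, TMM scaling, quantile normalization and array weights none, and 20 of 53 named genes without a call gained one somewhere. No called value turned round. The 3600 calls ranged over 2410 to 4345 in the alternatives with all 6 libraries other than array weights, which gave 5984, and over 2366 (without E4 6hPR replicate 3) to 3738 (without E4 6hPR replicate 2) in left-out fits. The share of calls higher at E5 was 57.3% and, under quantile normalization, 47.7%. The count of 546 differences from developing RPE became 283 with only the groups compared, 1206 with array weights and 1298 by DESeq2, and ranged over 244 to 713 in left-out fits: 281, 305 and 317 without E4 developing replicates 1, 2 and 3, 282 without E4 6hPR replicate 1, and 283 and 244 without E5 6hPR replicates 2 and 3. The count of 465 differences from 6hPR+FGF2 RPE became 704 with a mean of 10 or more, 1689 with only the groups compared, 5206 with array weights and 2413 by DESeq2, and ranged over 46 (without E5 6hPR+FGF2 replicate 1) to 1970 (without E4 6hPR replicate 2), with 11 of 12 libraries moving it by over 1.5 times. Where no construction of the alternative shows it, the cause was not tested. Same-numbered pools of the 2 stages had correlated deviations of 0.29, −0.017 and −0.13, only replicate 1 correlating best with its own number, so the numbers were not taken to pair them. With a replicate block the counts were 3315, 444 and 298, and *ESYT3* was the 1 named gene to lose its call.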

Other observations

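Of 18 tested glycolysis genes 2 rose and 3 fell in E5 6hPR RPE, beside 11.3% higher and 8.41% lower of all genes tested, with a median log2 fold change of 0.06. *HK2* (ENSGALG00000034855), an inducible hexokinase, counted 1875, 1909 and 2166 in E5 6hPR libraries, against 3588, 4976 and 3914 in E4 6hPR libraries, with −1.06 (adjusted p = 5.3e-05, SE 0.13), and *HK1* counted 6379, 6230.1 and 6087 in E5 6hPR libraries, against 8059.8, 7319.8 and 7959.5 in E4 6hPR libraries, with −0.32 (adjusted p = 0.0077, SE 0.08). *PDK4* and *PDK3*, kinases that restrain pyruvate dehydrogenase, counted 5073, 4897 and 4812 in E5 6hPR libraries, against 1789, 2263 and 1849.8 in E4 6hPR libraries, with 1.33 (adjusted p = 7.8e-05, SE 0.17), and 13124, 11686 and 11058 in E5 6hPR libraries, against 7994, 7774 and 7365 in E4 6hPR libraries, with 0.63 (adjusted p = 0.00035, SE 0.10). The groups were apart in these 4, whereas *GAPDH* counted 189554, 220199 and 242620 in E5 6hPR libraries, against 192169, 227865 and 222390 in E4 6hPR libraries and overlapped (log2 fold change 0.02, adjusted p = 0.95).

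Early response genes gave 1 increase and 2 decreases of 20, beside 11.3% higher and 8.41% lower of all genes tested. Without E5 6hPR replicate 3 these were 0 and 2, and without E4 6hPR replicate 2 they were 2 and 1. Of the 20, 14 were highest in E4 6hPR replicate 2. *FOS* counted 1374, 1656 and 2038 in E5 6hPR libraries, against 874, 2849.9 and 578 in E4 6hPR libraries and *EGR1* 2012, 1948 and 1942 in E5 6hPR libraries, against 1777, 2786 and 1898 in E4 6hPR libraries, and neither was called (log2 fold change 0.56, adjusted p = 0.36 and log2 fold change −0.10, adjusted p = 0.71), *FOS* being called higher without E4 6hPR replicate 2 (adjusted p = 0.0016). *SRF*, a factor that drives such genes, counted 2683, 2736 and 2936 in E5 6hPR libraries, against 3863, 3869.6 and 3669 in E4 6hPR libraries, with −0.45 (adjusted p = 0.0016, SE 0.08). In neural crest and melanocyte genes *TFAP2A* was the 1 called of 9, beside 8.41% lower of all genes tested. It counted 254, 254 and 255 in E5 6hPR libraries, against 643, 388 and 528 in E4 6hPR libraries, and fell on the log2 scale by 1.00 (adjusted p = 0.0047). Of 20 cholesterol synthesis genes 1 rose and 1 fell, beside 11.3% and 8.41% of all genes tested. None of them fell without E5 6hPR replicate 3, and 2 fell without E4 6hPR replicate 2. Lens genes were scarce, summing to 602 to 1098 in E5 6hPR and 525 to 605 in E4 6hPR libraries. Of 12 tested lens genes 2 rose and 2 fell, beside 11.3% higher and 8.41% lower of all genes tested. Without E5 6hPR replicate 3, 1 rose and 2 fell. Among the increases, *CRYAA*, a lens crystallin, counted 168, 209.8 and 250.3 in E5 6hPR libraries, against 34.1, 51.7 and 40.0 in E4 6hPR libraries, with 2.31 (adjusted p = 0.00088, SE 0.40).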
